A study of Mus musculus with 12 samples.

Results

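The genes that carry bile acids through the hepatocyte were followed in the livers of newborn mice with and without *Man1a2*. The group holds 10 genes out of 24421 gene symbols listed in each count table, and their rows were found by symbol, from a choice of genes made with earlier results of these data known. It covers the canalicular transporters *Abcb11*, *Abcb4* and *Abcc2*, the basolateral transporters *Slc10a1* and *Abcc3*, the nuclear receptors *Nr1h4* and *Nr0b2*, and the enzymes of bile acid synthesis and conjugation *Cyp7a1*, *Slc27a5* and *Baat*. All 10 had a row in every library, and all 10 held enough reads in liver to be tested.

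The mice were WT (*Man1a2*+/+) and null (*Man1a2*-/-) pups from crosses of *Man1a2*+/- parents carrying the Man1a2tm1.1Ahe allele, a germline deletion of exon 2, so both genotypes could be compared within 1 colony. *Man1a2* encodes a Golgi mannosidase that trims N-linked glycans on proteins passing to the cell surface. Null pups are known to die of respiratory failure at birth. Liver and lung of both genotypes were taken 30 to 60 minutes after delivery, which makes this a view of the first hour of life. In sections of null newborn liver the authors described widened portal areas, inflammation and a ductular reaction stained for Epcam. Each tissue of each genotype gave 3 poly-A RNA libraries, 12 in all.

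In the healthy liver, bile acids are made from cholesterol, joined to an amino acid, pumped across the canalicular membrane into bile, and taken back from portal blood at the basolateral membrane. The bile acid sensor FXR (*Nr1h4*) is known to induce SHP (*Nr0b2*) and the export pump *Abcb11*, and SHP in turn lowers *Cyp7a1*, so that retained bile acids shut off their own synthesis. Biliary atresia, the disease that prompted interest in *Man1a2*, blocks bile flow in infants, and inherited loss of the human counterparts of *Abcb11* and *Abcb4* causes cholestasis in children.

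Between null and WT liver, 1 of these 10 genes passed the test. *Nr1h4*, which encodes FXR, was lower in null liver by 0.77 on the log2 scale. *Abcb11*, *Nr0b2* and *Slc27a5* had higher mean levels in null liver, *Abcc2*, *Abcc3*, *Slc10a1*, *Cyp7a1* and *Baat* had lower ones, and *Abcb4* had equal ones, but none of these 9 passed the test in the comparison of all 6 liver libraries. A gene was called changed when edgeR's quasi-likelihood test gave a Benjamini-Hochberg adjusted p under 0.05 over all genes tested and the change reached 1.2-fold. By that rule 26.9% of the 14343 genes tested in liver were called, 13.5% as higher and 13.4% as lower in null liver, against 0 members higher and 1 of 10 lower. DESeq2 gave the same 2 counts, and 2 of 10 members had an unadjusted p under 0.05 by edgeR. The 3 WT and 3 null libraries failed to overlap for 2 of the 10 members, *Nr1h4* and *Abcc3*, against 46.6% of all genes tested. The median log2 fold change was -0.20 over the members and 0.02 over all genes tested.

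Several libraries bear on these values. Liver libraries held 32250518 to 37603073 counted reads and lung libraries 26759463 to 42914295. Reads of *Man1a2* outside the deleted exon are still counted. Levels are given in CPM, the reads of a gene relative to the TMM-scaled size of its library. *Man1a2* averaged 53.5 ± 13.4 CPM in WT liver against 38.6 ± 1.69 CPM in null liver (SD, n = 3). The groups did not overlap, and the edgeR adjusted p was 0.0809. WT liver 2, at 40.6 CPM, lay just above null liver 1, at 40.2 CPM. The library labelled null lung 1 went against its tissue label: *Sftpc*, the surfactant gene of the alveolar type II cell, stood at 35.0 CPM there and at 15720 to 22450 CPM in the other 5 lung libraries. Null liver 1 held 339 CPM of *Des*, the muscle and stellate cell filament gene, against 6.14 to 11.6 CPM in the other 5 livers. It also held 452 CPM of *Col1a1* against 56.5 to 85.8 CPM and 792 CPM of *Col3a1* against 153 to 218 CPM, both collagen genes of fibroblasts. The other stellate and fibroblast markers were not raised there. *Dcn* (222 CPM), *Reln* (96.05 CPM) and *Pdgfrb* (13.3 CPM) lay within the range of the other livers, and *Lrat* (5.71 CPM) was the lowest. WT liver 2 held 30.7 CPM of *Sftpc*, against at most 4.25 CPM in the other livers. Null lung 1 held 1173 CPM of *Des*, 2745 CPM of *Col1a1*, 7213 CPM of *Col3a1*, 1011 CPM of *Dcn* and 16.1 CPM of *Reln*. Each of these values was above that of every other lung library. *Pdgfrb* (100.5 CPM) and *Lrat* (1.47 CPM) were lower there than in any other lung library.

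Hepatocyte genes were high in all 6 livers. *Alb*, the main secreted protein of the hepatocyte, stood between 75140 and 123700 CPM in the 6 livers. The summed level of 12 hepatocyte markers ranged from 141000 to 183000 CPM in WT and from 151000 to 205000 CPM in null liver, and 0 of these 12 were called, with 1 at an unadjusted p under 0.05 and 0 higher and 0 lower by DESeq2. Summed cholangiocyte markers ranged from 97.7 to 123 CPM in WT and from 89.6 to 171 CPM in null liver, with 0 of 8 called, 1 at an unadjusted p under 0.05 and 0 higher and 0 lower by DESeq2. In bulk tissue, fewer cells of a type and less RNA per cell cannot be told apart, and this holds for every value given here.

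**Figure D1:**
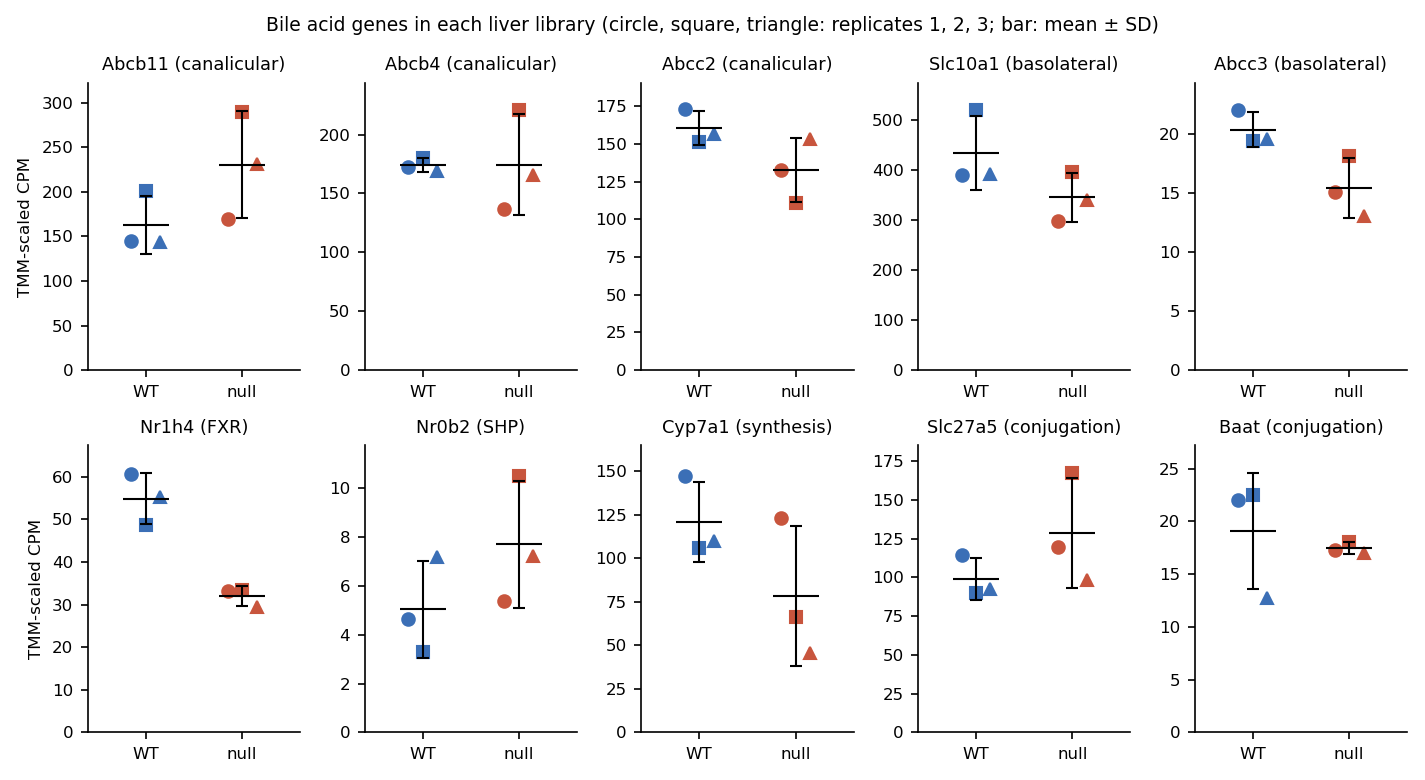
TMM-scaled CPM (vertical axes, each from 0) of the 10 bile acid genes in the 3 WT (blue) and 3 null (red) liver libraries, with circles, squares and triangles for replicates 1, 2 and 3, and the mean ± SD in black. *Nr1h4* is the gene whose groups lie farthest apart, at 48.7 to 60.6 CPM in WT and 29.3 to 33.5 CPM in null liver, and *Abcc3* is the only other gene without overlap.

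Among the canalicular transporters 0 of 3 were called by edgeR or DESeq2, with 0 at an unadjusted p under 0.05. *Abcb11*, the bile salt export pump, stood at 145, 200.5 and 143 CPM in WT replicates 1, 2 and 3 and at 169.7, 289 and 231 CPM in null replicates 1, 2 and 3. The groups overlapped, because WT liver 2 lay above null liver 1. The WT mean was 163 ± 32.7 CPM and the null mean 230.2 ± 59.9 CPM (SD, with 3 libraries a group here and below), and the log2 fold change was 0.50 (95% interval -0.01 to 1.01) with an edgeR adjusted p of 0.128. Single libraries moved this value. Without null liver 1, the library with the high *Des*, the log2 fold change was 0.68 with an edgeR adjusted p of 0.0336, and without both null liver 1 and WT liver 2 it was 0.86 with an adjusted p of 0.0215, while the other leave-one-out fits gave 0.28 (without null liver 2) to 0.68 (without WT liver 2) and no call. The annotation places *Gm13613* and *Gm13614* on the strand opposite to *Abcb11*, and whether the counting used strand is not given in the sources used here.

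*Abcb4*, the floppase that moves phosphatidylcholine into bile, stood at 173, 180.5 and 169 CPM in WT and at 137, 221 and 165 CPM in null liver. The WT libraries lay close together inside the wider null range. The means were 174 ± 5.82 and 174.5 ± 42.9 CPM, a log2 fold change of 0.00 (95% interval -0.40 to 0.41) with an edgeR adjusted p of 0.986. Its sign turned in 8 of 18 alternative fits, within -0.22 to 0.18. *Abcb4* is a close paralog of *Abcb1a* and *Abcb1b*, and reads shared between them could be divided in more than 1 way.

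*Abcc2*, the canalicular pump for bilirubin glucuronides and other organic anions, stood at 173, 151 and 156 CPM in WT and at 133, 111 and 153 CPM in null liver. Null liver 3 lay within the WT range and the other null libraries below it. The log2 fold change was -0.27 (95% interval -0.60 to 0.06) with an edgeR adjusted p of 0.185, and it was -0.18 without null liver 2.

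At the basolateral membrane both transporters had lower mean levels in null liver, and neither passed the test. *Slc10a1* (NTCP), the sodium-dependent carrier that takes conjugated bile acids up from blood, stood at 390.4, 519.7 and 392 CPM in WT and at 298, 396 and 341 CPM in null liver. Null liver 2 lay just above WT libraries 1 and 3. The log2 fold change was -0.33 (95% interval -0.71 to 0.05) with an edgeR adjusted p of 0.167. It was -0.18 without WT liver 2 and -0.087 without both null liver 1 and WT liver 2. *Abcc3*, a pump that returns bile acid conjugates to blood and is known to rise in cholestasis, stood at 22.1, 19.4 and 19.6 CPM in WT and at 15.1, 18.1 and 13.05 CPM in null liver. The null libraries all lay below the WT libraries, with 18.1 CPM in null liver 2 nearest to the WT range. The means were 20.4 ± 1.49 and 15.4 ± 2.55 CPM, a log2 fold change of -0.40 (95% interval -0.73 to -0.07) that was not called, with an edgeR adjusted p of 0.0745. Without null liver 2 it was -0.55 with an edgeR adjusted p of 0.0299, and with upper-quartile scaling -0.50 with 0.0345, which were the only 2 of 18 alternative fits that called it.

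*Nr1h4* was the member that passed the test. Its protein FXR is activated by bile acids and, paired with RXR, controls the transporters and enzymes above. *Nr1h4* stood at 60.6, 48.7 and 55.2 CPM in WT and at 33.2, 33.5 and 29.3 CPM in null liver. The highest null library lay well below the lowest WT library, and the null libraries were the more alike. The means were 54.8 ± 5.98 and 32.0 ± 2.32 CPM, which is 0.585 times the WT level (95% interval 0.488 to 0.701), or a log2 fold change of -0.77 with an SE of 0.11 and an edgeR adjusted p of 0.00464. It was called in 17 of 18 alternative fits and in all 6 fits that left out 1 library, where the log2 fold change ran from -0.85 to -0.70. Adjusted p ranged from 3.56e-07 with DESeq2 to 0.399 with all 12 libraries in 1 fit, which includes null lung 1 and did not call it. With libraries scaled to the hepatocyte markers alone the log2 fold change was -0.80 with an edgeR adjusted p of 0.0157. The exact permutation test of its 3 against 3 libraries gave p = 0.1, the smallest that this design allows.

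*Nr0b2* (SHP), a repressor without a DNA-binding domain that FXR is known to induce, stood at 4.66, 3.28 and 7.17 CPM in WT and at 5.40, 10.5 and 7.22 CPM in null liver. WT liver 3 lay above null liver 1, so that the groups overlapped. The means were 5.04 ± 1.97 and 7.71 ± 2.60 CPM, a log2 fold change of 0.61 with an edgeR adjusted p of 0.213. The 95% interval ran from -0.18 to 1.40. Leaving out null liver 2 gave 0.31, WT liver 2 gave 0.38 and WT liver 3 gave 0.96, none of them called, and *Nr0b2* was the member with the fewest reads, 106 to 394 in a liver library.

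Of the 10 members, 6 had a RefSeq promoter. Those of the receptor that passed the test and of its textbook targets *Abcb11* and *Nr0b2* are shown. Each is the 250 bases before the RefSeq start in GRCm38.p6, written 5′ to 3′ on the strand of the gene, with capitals for AGGTCA or its reverse complement TGACCT, the hexamer that nuclear receptors bind. The *Nr1h4* window lies at chr10:89506659-89506908 (minus strand), at a start inside the GENCODE M21 span of the gene, chr10:89454234-89533585, that of *Abcb11* at chr2:69342617-69342866 (minus strand) and that of *Nr0b2* at chr4:133553126-133553375 (plus strand).
Nr1h4: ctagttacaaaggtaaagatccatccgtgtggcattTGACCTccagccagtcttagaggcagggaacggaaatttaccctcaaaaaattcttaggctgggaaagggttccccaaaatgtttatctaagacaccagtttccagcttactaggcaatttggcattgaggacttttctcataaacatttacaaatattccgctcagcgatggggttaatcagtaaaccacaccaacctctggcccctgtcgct
Abcb11: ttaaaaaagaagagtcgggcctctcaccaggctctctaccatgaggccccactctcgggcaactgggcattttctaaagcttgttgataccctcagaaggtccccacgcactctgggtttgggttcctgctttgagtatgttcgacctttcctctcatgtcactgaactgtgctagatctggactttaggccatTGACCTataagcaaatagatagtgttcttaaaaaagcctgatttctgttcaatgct
Nr0b2: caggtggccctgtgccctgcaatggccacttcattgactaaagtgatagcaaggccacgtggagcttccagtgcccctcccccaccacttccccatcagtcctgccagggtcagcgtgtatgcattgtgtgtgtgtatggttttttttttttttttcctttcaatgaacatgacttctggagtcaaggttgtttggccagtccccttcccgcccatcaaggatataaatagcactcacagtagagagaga

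The *Nr1h4* window held 1 AGGTCA match, 214 bases before the start. The *Abcb11* window held 1 AGGTCA match 56 bases before the start, and the *Nr0b2* window held none. Among the windows not shown, that of *Abcc2* held a match 49 bases before the start and an *Slc10a1* window held a match at 87 bases. The *Abcb4* window and a further *Slc10a1* window held none. Over 32851 RefSeq promoter windows of the same length, searched on both strands, 14% held AGGTCA. The inverted repeat AGGTCANTGACCT is the classical form of the FXR element and is made of AGGTCA on both strands. Only its exact letters were searched, and they were in 2 of those windows and in 0 of the members' windows. Forms with a changed letter were not counted, so this 0 does not show that the members' windows lack an FXR element. The *Abcb11* window reads aggccatTGACCT at its match, which differs from the searched form in 1 letter. Sites farther than 250 bases before the start lie outside the windows and were not searched. These matches describe the letters of the windows and were not measured as binding.

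The enzyme that starts bile acid synthesis differed widely between the null livers. *Cyp7a1*, the cholesterol 7-alpha-hydroxylase and the rate-limiting step of the classical route, stood at 147, 106 and 109.8 CPM in WT and at 123, 66.5 and 45.6 CPM in null liver. Null liver 1 lay inside the WT range, and the other null libraries lay below every WT library. The means were 121 ± 23.0 and 78.4 ± 40.1 CPM, a log2 fold change of -0.62 (95% interval -1.41 to 0.17) with an edgeR adjusted p of 0.205. Without null liver 1 the log2 fold change was -1.11 with an edgeR adjusted p of 0.00972, and without both null liver 1 and WT liver 2 it was -1.20 with 0.0246, while the fits that left out any other single library gave -0.71 to -0.35 and no call. Null liver 1 is the library that also held the high *Des*, *Col1a1* and *Col3a1*, and the part these had in the value of *Cyp7a1* was not tested.

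The conjugating enzymes gave no call. *Slc27a5*, the bile acid CoA ligase that prepares bile acids for conjugation, stood at 115, 90.04 and 92.9 CPM in WT and at 119.7, 167 and 98.7 CPM in null liver. Null liver 2 stood apart above the other 5 libraries, and null liver 3 lay within the WT range. The log2 fold change was 0.38 (95% interval -0.10 to 0.85) with an edgeR adjusted p of 0.203, and it was 0.12 without null liver 2. *Baat*, which joins taurine or glycine to the activated bile acid, stood at 22.1, 22.5 and 12.7 CPM in WT and at 17.3, 18.1 and 17.0 CPM in null liver. The null libraries lay between the WT libraries. The log2 fold change was -0.13 (95% interval -0.62 to 0.36) with an edgeR adjusted p of 0.679, and it was -0.010 without WT liver 1, 0.0073 without WT liver 2 and -0.35 without WT liver 3.

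**Figure D2:**
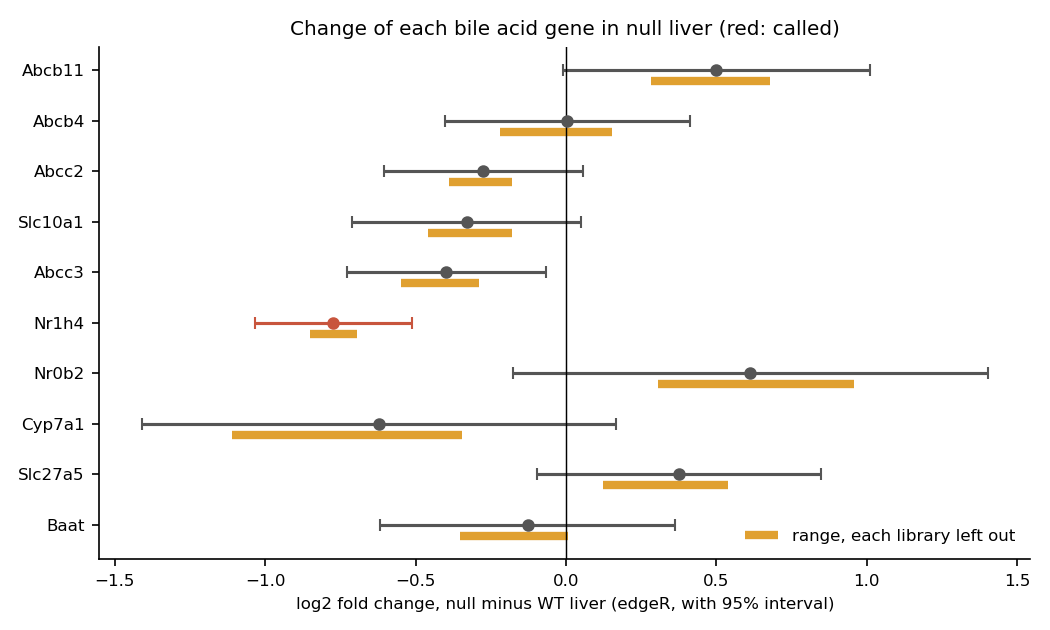
Log2 fold change of each bile acid gene, null minus WT liver, from edgeR (points) with its 95% interval (lines) and, as orange bars, the range of the values when each of the 6 liver libraries was left out in turn. *Nr1h4*, in red, is the gene called, at -0.77 with a range of -0.85 to -0.70, and the widest range belongs to *Cyp7a1*, at -1.11 to -0.35.

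Leaving out null liver 1 changed the calls among the members. Without it, 3 of 10 members were called (*Abcb11* higher, *Nr1h4* and *Cyp7a1* lower), against 23.8% of the 14501 genes tested in that fit. Without null liver 1 and WT liver 2, the same 3 were called in the same directions, against 15.7% of 14381 genes. The second of these fits was added after the values had been seen. No test of the members as a list was made.

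Per length of exon, *Slc10a1* was the most abundant member in WT liver, at 197 ± 33.7 CPM per kb, and no other member's range reached it. *Slc27a5* (40.7 ± 5.54 CPM per kb), *Abcb11* (31.6 ± 6.34), *Cyp7a1* (29.0 ± 5.51) and *Nr1h4* (23.8 ± 2.60) came next on that scale, and the ranges of neighbours in this order overlapped. *Abcc2* (18.8 ± 1.33 CPM per kb) and *Abcb4* (18.6 ± 0.62) overlapped with each other and lay below *Nr1h4*. *Baat* (9.84 ± 2.85 CPM per kb) lay below both and above *Nr0b2* (4.45 ± 1.74) and *Abcc3* (3.57 ± 0.26), whose ranges overlapped. In null liver the order of the mean levels per kb was the same but for *Nr1h4*, which moved from rank 5 to rank 7, and *Abcb4*, which moved from rank 7 to rank 5.

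Some other genes of bile acid handling, in lists of named genes around the members, changed by more than any member did. Across 7 lists, 87 of 93 genes were tested, and 13 were called higher and 15 lower in null liver, which is 32.2% against the 26.9% of all genes, with a median log2 fold change of 0.07. These counts describe the lists and were not tested against the background.

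Of 10 further canalicular transporters, all of which were tested, 2 were higher, 1 was lower and 7 were not called. *Aqp8*, a water channel of the canalicular membrane, had a mean of 27.7 ± 3.49 CPM in WT and rose to 164.5 ± 55.0 CPM with the deletion, and the log2 fold change was 2.57 with an SE of 0.24 and an edgeR adjusted p of 0.00201. Its WT libraries stood at 24.3, 31.3 and 27.4 CPM and its null libraries at 227, 142 and 125 CPM, far above all of them. *Atp8b1*, the flippase whose human counterpart is lost in progressive familial intrahepatic cholestasis, fell from 34.2, 38.04 and 35.6 CPM to 13.3, 13.8 and 14.2 CPM. The libraries of each genotype were nearly alike, and the log2 fold change was -1.38 with an SE of 0.09 and an edgeR adjusted p of 0.00164. *Abcb1a*, a multidrug pump, was higher at a log2 fold change of 1.0 with an edgeR adjusted p of 0.0469, and was called in 7 of 18 alternative fits.

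Of the further basolateral transporters, 10 of 12 were tested, 2 were higher and 0 lower (also by DESeq2), with 2 at an unadjusted p under 0.05. *Abcc6*, a basolateral pump that leads to ATP release from hepatocytes, rose from 29.8 ± 2.24 to 49.5 ± 3.73 CPM, or by 0.73 on the log2 scale, with an edgeR adjusted p of 0.00411. *Slco1a1*, an uptake carrier, was the other, with means of 0.31 ± 0.14 CPM (WT) and 2.07 ± 1.37 CPM (null) (edgeR adjusted p 0.0124), and it fell below the level set for naming genes. The main hepatocyte carrier *Slco1b2* was not called, at 283 ± 95.4 and 180.1 ± 64.9 CPM. *Slc22a7* and *Slc10a2* had too few reads to be tested, at most 12 and 2 in a liver library.

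Of the other genes of bile acid synthesis, 15 of 16 were tested, 2 were higher and 3 lower (2 and 4 by DESeq2). *Cyp2c70*, which makes the muricholic acids of the mouse, rose from 94.6, 79.8 and 81.95 CPM to 271, 399 and 334 CPM. No null library came near the WT range, and the log2 fold change was 1.97 with an SE of 0.17 and an edgeR adjusted p of 0.00201. *Cyp27a1*, the sterol 27-hydroxylase that opens the alternative route, rose by a log2 fold change of 0.70 with an edgeR adjusted p of 0.0267, called in 12 of 18 alternative fits. The peroxisomal genes *Abcd3* and *Hsd17b4*, which import and shorten the side chain of bile acid intermediates, fell from 342 ± 52.0 to 159 ± 34.8 CPM and from 233 ± 13.3 to 134 ± 20.8 CPM. Their log2 fold changes were -1.10 and -0.80 with edgeR adjusted p-values of 0.007 and 0.00752. *Cyp8b1*, the 12-alpha-hydroxylase that makes cholic acid, had means of 214 ± 23.0 CPM (WT) and 165 ± 15.9 CPM (null). It was not called by edgeR, with an adjusted p of 0.0661 and an unadjusted p of 0.0207. Its null libraries all lay below its WT libraries.

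Of the nuclear receptors and signalling genes around *Nr1h4* and *Nr0b2*, 18 were tested, with 5 higher and 5 lower. That is 55.6%, against 26.9% of all genes tested in liver. The list was chosen with earlier results of these data known, so this share describes the list only. *Prox1*, a hepatocyte homeobox factor, fell from 36.1 ± 5.75 to 14.3 ± 2.79 CPM (log2 fold change -1.33), with an edgeR adjusted p of 0.00343. The oxysterol receptor *Nr1h3* (LXR alpha) and the xenobiotic receptor *Nr1i3* (CAR) also fell, by 1.12 and 0.91 on the log2 scale, with edgeR adjusted p-values of 0.012 and 0.0169. *Fgfr4*, the receptor through which the gut hormone FGF15 represses *Cyp7a1*, was lower at a log2 fold change of -0.69, while *Klb*, its co-receptor, was higher at 0.33 with an edgeR adjusted p of 0.0355. *Vdr*, which binds vitamin D, was higher at 3.96 ± 1.87 CPM against 0.75 ± 0.28 CPM (log2 fold change 2.39), with an edgeR adjusted p of 0.00753. *Nr5a2* (LRH-1), which activates *Cyp7a1*, was higher at 0.62 with an edgeR adjusted p of 0.014. *Rxra*, the partner of FXR, was higher at 0.48 with an edgeR adjusted p of 0.0482, just under the threshold. The hepatocyte factor *Hnf4a* (401 ± 53.1 and 432 ± 24.9 CPM) and the bile acid and xenobiotic receptor *Nr1i2* (71.6 ± 3.16 and 60.6 ± 5.81 CPM) were not called.

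Known FXR target genes outside the members gave 0 higher and 1 lower of 10 tested (0 and 2 by DESeq2), with 2 at an unadjusted p under 0.05 and a median log2 fold change of -0.10. The list includes *Cyp8b1*, named above, and was not split by whether FXR raises or lowers a gene. These counts and the median therefore give no direction of FXR activity. *Sdc1*, the heparan sulphate proteoglycan syndecan-1, fell from 172, 246 and 225 CPM to 88.98, 142 and 125 CPM. The groups did not overlap, and the log2 fold change was -0.85 with an edgeR adjusted p of 0.0215, called in 14 of 18 alternative fits. *Slc51a* and *Slc51b*, the paired basolateral exporter that is known to rise strongly with FXR activation, had WT means of 0.77 ± 0.19 and 1.61 ± 0.44 CPM and null means of 0.51 ± 0.10 and 1.99 ± 0.84 CPM and were not called. *Fgf15* had at most 1 read in a liver library.

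Genes of the canaliculus and of inherited cholestasis gave 2 higher and 5 lower of 22 tested. The tight junction gene *Ocln* rose from 20.3 ± 3.34 to 52.5 ± 10.6 CPM (log2 fold change 1.37), with an edgeR adjusted p of 0.00343. *Cgn* (cingulin), also of the tight junction, fell from 33.9 ± 2.61 to 15.1 ± 2.29 CPM (log2 fold change -1.16), with an edgeR adjusted p of 0.00285. *Vipas39*, a trafficking gene lost in the arthrogryposis, renal dysfunction and cholestasis syndrome, and its partner *Vps33b* were lower at -0.71 and -0.48. Their edgeR adjusted p-values were 0.00534 and 0.0448, the latter just under the threshold. *Cldn3*, a claudin, was lower at -1.23 with an edgeR adjusted p of 0.0473 and was called in 10 of 18 alternative fits. Of the 7 detoxification genes, 0 were called by edgeR, with 1 at an unadjusted p under 0.05, and 0 higher and 1 lower by DESeq2. *Cyp3a11*, the main CYP3A enzyme of mouse liver, had a WT mean of 665 ± 247 CPM and a null mean of 395 ± 63.0 CPM.

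**Figure D3:**
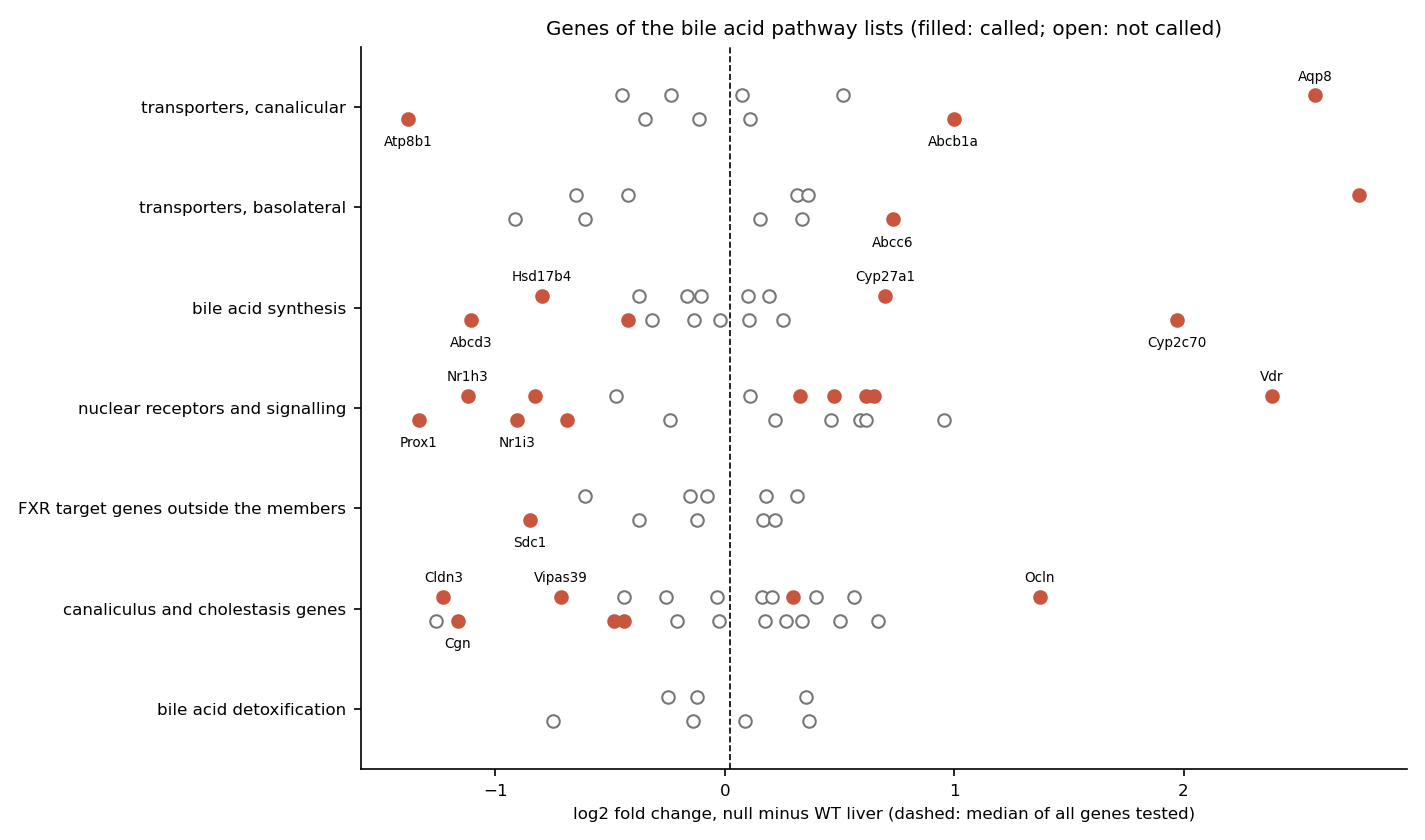
Log2 fold change, null minus WT liver (horizontal axis), of each tested gene in the 7 lists around the members, filled where called and open where not, with the genes chosen for naming labelled and a dashed line at the median of all genes tested (0.02). Calls lie on both sides of the line in most lists, from *Atp8b1* at -1.38 to *Aqp8* at 2.57 and the unlabelled *Slco1a1* at 2.77, and the FXR targets hold 1 call, *Sdc1* at -0.85.

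Markers of other cells are given by their summed levels and their calls, beside the 26.9% of all genes called. Summed stellate and fibroblast markers ranged from 531 to 655 CPM in WT and from 602 to 1920 CPM in null liver, with the top value in null liver 1, and 1 of 7 was called higher and 2 lower (1 and 2 by DESeq2). Summed neutrophil markers ranged from 1720 to 3380 CPM in WT and from 2450 to 3760 CPM in null liver, with 2 of 8 higher (4 by DESeq2). Macrophage markers (608 to 642 against 597 to 730 CPM) had 1 of 8 higher (1 by DESeq2), and endothelial markers (376 to 387 against 396 to 462 CPM) had 2 of 6 higher (2 higher and 1 lower by DESeq2). Erythroid markers summed to 1920 to 2440 CPM in WT and 1770 to 3090 CPM in null liver with 1 of 7 tested lower (1 by DESeq2), and the 4 adult haemoglobin genes among them were listed at 0 in every liver library although *Alas2* stood at 349 to 694 CPM. Markers of lung epithelium summed to 3.46 to 46.7 CPM in WT and 3.36 to 9.93 CPM in null liver, with 0 of 2 tested called, 0 at an unadjusted p under 0.05 and 0 called by DESeq2. Pancreas and gut markers summed to at most 13.8 CPM, and the 1 tested by edgeR was lower (1 higher and 1 lower of 6 by DESeq2). The part of these cells in the values of the members was not tested.

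The lung was compared as a tissue in which hepatocyte genes were low but not absent. The 12 hepatocyte markers summed to 46.1 to 704 CPM in WT lung and to 98.9 to 693 CPM in null lung, and *Alb* was highest in WT lung 1 (392 CPM) and null lung 2 (404 CPM). *Slc10a1*, *Abcc2*, *Cyp7a1* and *Slc27a5* were each highest in these same libraries within their genotype, with *Slc10a1* at 1.31 CPM in WT lung 1 and 0.84 CPM in null lung 2 against 0.087 to 0.22 CPM in the other 4 lungs. The part of these genes in the lung values was not tested. In a lung library 3 reads amount to 0.0702 to 0.113 CPM, the floor set by counting error alone, and 7 of the 10 members had too few reads in lung to be tested. *Abcc3*, which many epithelia make, was the only member at liver-like levels in lung, with 16.6, 22.5 and 18.5 CPM in WT and 3.24, 16.9 and 15.8 CPM in null lung. The low value belongs to null lung 1, the library without *Sftpc*. The log2 fold change of *Abcc3* was -0.68 with an edgeR adjusted p of 0.488, and -0.23 with 0.298 without that library. *Abcb4* (1.28 ± 0.28 and 2.01 ± 0.45 CPM) and *Abcb11* (0.29 ± 0.33 and 0.75 ± 0.52 CPM) were also tested and not called, with edgeR adjusted p-values of 0.275 and 0.456. Both were highest in null lung 1, at 2.52 CPM for *Abcb4* and 1.17 CPM for *Abcb11*. Without that library the log2 fold change of *Abcb4* went from 0.65 to 0.46 and that of *Abcb11* from 1.31 to 0.79.

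*Nr1h4* stood at 0.26, 0.10 and 0.087 CPM in WT lung and at 1.17, 0.10 and 0.12 CPM in null lung. *Nr0b2* stood at 0.070, 0 and 0.029 CPM in WT lung and at 1.17, 0.078 and 0.049 CPM in null lung. In both genes the value above the rest is that of null lung 1, which held 49.1 CPM of *Alb*, within the 23.1 to 404 CPM of the other lungs. Of the members, 0 were called in lung by edgeR, with 0 at an unadjusted p under 0.05 and 0 called by DESeq2, against 0.327% of 15591 genes tested. Without null lung 1, 0 of 6 members tested were called, again with 0 at an unadjusted p under 0.05, although 37% of 15885 genes then were.

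The effect of genotype was not shown to differ between liver and lung for any member. In the interaction term of edgeR over all 12 libraries 0 of 10 members were called, 0 had an unadjusted p under 0.05 and 0 were called by DESeq2, against 0.371% of 16155 genes. For *Nr1h4* the log2 fold change in lung less that in liver was 2.17 with an SE of 0.997 and an edgeR adjusted p of 0.372. That difference rested on null lung 1, since without it the value was 0.32 with an SE of 0.53 and an edgeR adjusted p of 0.815. Without null lung 1, 0 of 10 members were called and 0 had an unadjusted p under 0.05, against 5% of 16257 genes.

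**Figure D4:**
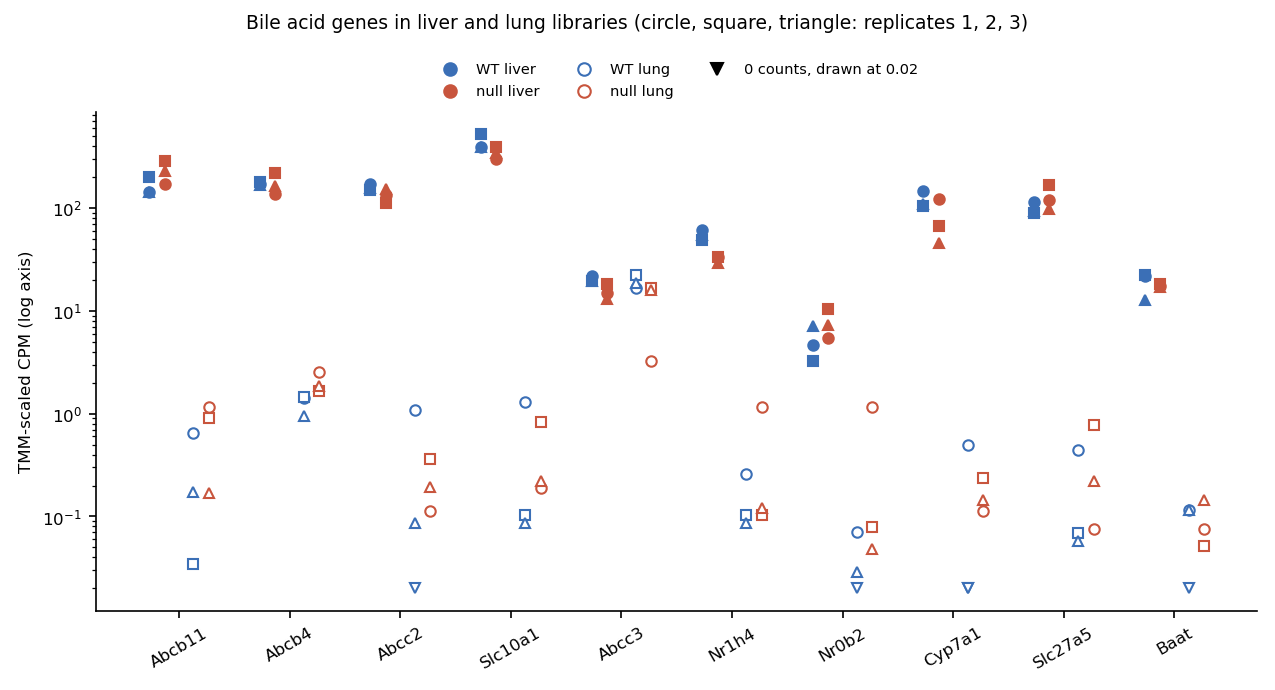
TMM-scaled CPM (log axis) of the 10 bile acid genes in liver (filled) and lung (open) of WT (blue) and null (red) mice, with circles, squares and triangles for replicates 1, 2 and 3 and downward triangles at 0.02 for libraries with 0 counts. Every member but *Abcc3* lies far lower in lung than in liver, and the open red circles of *Nr1h4* and *Nr0b2*, both at 1.17 CPM, are the library labelled null lung 1.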

How the data were processed

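Liver and lung RNA of newborn WT and null mice was made into stranded poly-A libraries (TruSeq) and sequenced, in 4 groups of 3 libraries. The authors deposited raw counts, 1 table for each library, holding whole numbers of reads under gene symbols with no normalization. The tables had 0 further columns of sample values. The submitters' processing notes name FastQC, STAR 2.5.2a, DESeq2 and the build mm10. The counting program, the annotation and the strand setting are not given in the sources used here, so overlapping genes and close paralogs are uncertain. In 27 rows the gene name had become a date, and these were tested unnamed. The design text speaks of 3 mice of each genotype. The labels do not tie libraries to animals, so p-values measure the spread between these libraries. Liver and lung of a genotype may come from the same mice, and the test of the tissue difference treated the 12 libraries as independent.

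The tests used edgeR 4.0.16 under R 4.3.3 (filterByExpr, TMM factors, quasi-likelihood test, Benjamini-Hochberg adjustment over all genes tested) within each tissue, and the tissue difference as an interaction term over 12 libraries. The threshold was an adjusted p of 0.05 with a 1.2-fold change. CPM were scaled to TMM-adjusted totals. Standard errors came from the log2 fold change and the F statistic, with 95% intervals. The exact permutation test, two-sided, used log2(CPM + 0.5) of 1 gene at a time. Levels per kb used exon lengths of GENCODE M21 on GRCm38, the assembly of mm10, and promoters came from RefSeq on GRCm38.p6. Protein features of the members were not analysed here. The main edgeR and DESeq2 fits of liver, lung and the tissue difference were also run on simulated counts. The exact test, the intervals and the other alternative fits were not.

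A result for 1 gene of the lists is not reported here. Members and lists were chosen with earlier results of these data known. Named genes were the members, *Man1a2*, markers by list and, from each list, up to 4 called genes with the largest change and a mean of at least 1 log2 CPM. Other genes named from the lists, such as *Fgfr4*, *Klb*, *Nr5a2*, *Rxra*, *Vps33b*, *Slco1a1*, *Slco1b2*, *Cyp8b1*, *Slc51a*, *Slc51b*, *Hnf4a*, *Nr1i2*, *Cyp3a11* and the untested genes, were chosen after their values were seen. The lists were canalicular and basolateral transporters, bile acid synthesis, nuclear receptors and signalling, FXR targets, canaliculus and cholestasis genes, and detoxification, with 9 lists of cell markers, in which Tf was not analysed here. Libraries of a group were compared in pairs, and chi-square per gene was at least 14.7 in all 12 pairs, so none was counted as a copy. Same-numbered WT and null libraries did not deviate together (correlations -0.029, -0.0015 and 0.16 in liver; -0.039, -0.036 and 0.10 in lung). Alternatives were DESeq2 1.42.0, other scaling factors, other filters, no minimum fold change, all 12 libraries in 1 fit, scaling to hepatocyte markers, no haemoglobin or top 20 genes, the replicate block, and leaving out each library. A fit without null liver 1 and WT liver 2 was added after the data had been seen.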

Additional observations from a re-analysis of the deposited data

How the results depend on the processing

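*Nr1h4* was lower in null liver in all 18 alternative fits, at -0.90 to -0.70 on the log2 scale. With all 12 libraries in 1 fit it was no longer called, so the members called lower became 0 (DESeq2 on liver alone called 1), and the genes called in liver 1921, with 4538 at an unadjusted p under 0.05. Upper-quartile factors called 2 members lower. Scaling to hepatocyte markers called 2486 genes. Leaving out 1 library gave 0 to 1 members higher, 1 to 2 lower and 1641 to 3451 genes, against 3856, with 2150, 2268 and 1641 without WT liver 1, 2 and 3. Without null liver 1 and WT liver 2, 1 member was higher, 2 were lower and 2253 genes were called. Of the liver calls 50.1% were higher with TMM factors, 35% with upper-quartile factors and 31.9% with total counts, whose medians over all genes were 0.02, -0.086 and -0.11, and *Nr1h4* stood at -0.88 and -0.90 under the latter. *Abcb4* turned to -0.10 with upper-quartile factors, -0.12 with total counts, -0.024 with 10 counts in every library, -0.023 with the replicate block and -0.024 with hepatocyte scaling, and ran from -0.22 to 0.15 when libraries were left out. *Baat* ran from -0.35 to 0.0073 when libraries were left out and was 0.015 without null liver 1 and WT liver 2, where *Abcb4* was 0.18. The cause was not tested. DESeq2 called 8 higher and 6 lower among the nuclear receptor list, 6 and 6 among the canaliculus genes, 2 lower FXR targets and 1 lower detoxification gene. Without null liver 1 the canaliculus genes gave 1 higher and 4 lower, and detoxification 1 higher. Without null liver 1 and WT liver 2, 0 FXR targets were called. In lung, 51 genes were called, and 2355 by DESeq2, 2 with DESeq2 size factors, 109 with upper-quartile factors, 317 with total counts, 0 with 1 count in all libraries (4096 at an unadjusted p under 0.05), 210 with 10 counts, 2284 with all 12 libraries and 0 to 5881 without 1 library, the highest without null lung 1. For the tissue difference 60 genes were called, and 617 by DESeq2, 33 with 1 count, 92 with 10 counts and 0 to 813 without 1 library, the highest again without null lung 1.

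With the replicate number as a block, 3304 genes were called in liver, 0 in lung (2743 at an unadjusted p under 0.05) and 5 for the tissue difference, with 1 member lower in liver as before. The labels do not say whether the same number in liver and lung means the same animal.

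In lung, 7 members had too few reads to be tested, at depths like those of liver. With 3 libraries a group, intervals of the uncalled members still hold changes as large in size as that of *Nr1h4* for *Abcb11*, *Slc27a5*, *Nr0b2* and *Cyp7a1*, and the exact test cannot pass 0.05.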
